A study of Mus musculus with 4 samples.

Results

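The receptors for IL-23 and IL-12 are built from 3 genes, Il23r, Il12rb2 and Il12rb1, and their H3K27ac peaks in mouse Th17 cells are described here. Members were the peaks that overlapped one of these genes or the 50 kb on either side of it, and they numbered 67 of the 56285 peaks in the list (0.119%). Of these, 24 were assigned to Il23r, 28 to Il12rb2 and 15 to Il12rb1. A peak between Il23r and Il12rb2, which are neighbours on chromosome 6, was given to the gene body nearer to its midpoint, so that each peak counted once.

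H3K27ac is acetylation of lysine 27 on histone H3, a mark of active promoters and enhancers, and ChIP-seq reads it as stretches of the genome, called peaks, that are enriched over input DNA. The labels name 4 libraries: in each of 2 biological replicates an H3K27ac IP was paired with its own input DNA. All 4 came from naive CD4+ T cells of C57BL/6 mice cultured for 72 h with 0.25 µg/mL anti-CD3ε, 1 µg/mL anti-CD28, 0.1 ng/mL TGF-β and 20 ng/mL IL-6, per the treatment labels, while the TGF-β dose in the growth protocol is a range. Neither IL-23 nor IL-12 is named among the additions, and the peak names carry the tag WT_Ddx5, which the labels do not explain. The list holds positions without a score or a value per library. No value below therefore has a replicate error, read depth is unknown, and with 1 cell state there is no contrast between conditions. Acetylated length means bases under a peak, which is extent and not intensity.

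The labelled cell type was set against marker genes. A peak lay within 1000 bp of an annotated end in 6 of 6 Th17 markers, Il23r among them, and in 5 of 5 general T cell markers, against a background of 53.8% of 21631 protein-coding genes. The same held for 2 of 3 Th1 markers, 1 of 3 B cell markers, 1 of 4 myeloid markers, 0 of 2 NK markers and 0 of 2 erythroid markers.

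IL-23 and IL-12 are heterodimeric cytokines that share a subunit, and their receptors share a chain too. The chain encoded by Il12rb1 pairs with the Il23r product to bind IL-23 and with the Il12rb2 product to bind IL-12. IL-23 signals through JAK2 and TYK2 mainly to STAT3 and sustains Th17 cells, whereas IL-12 signals through the same kinases mainly to STAT4 and drives Th1 cells.

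Il23r (gene ID 209590, chr6:67422932-67491855, GRCm38) and Il12rb2 (gene ID 16162, chr6:67285986-67376293) are both transcribed from the minus strand, with Il23r ahead of Il12rb2 in the direction of transcription. Their RefSeq promoter windows, from 250 bases before to 50 bases after the start, are shown because each lay wholly under a wide peak and because their letters differ. Capitals mark matches to the motifs that were searched.
Il23r promoter, chr6:67491806-67492105, minus strand, GRCm38.p6: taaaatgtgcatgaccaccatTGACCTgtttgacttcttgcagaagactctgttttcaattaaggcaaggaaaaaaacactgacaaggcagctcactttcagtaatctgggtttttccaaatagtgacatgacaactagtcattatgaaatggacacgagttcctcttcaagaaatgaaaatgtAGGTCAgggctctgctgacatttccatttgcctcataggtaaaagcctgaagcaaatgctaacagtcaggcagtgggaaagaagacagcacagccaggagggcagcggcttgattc
Il12rb2 promoter, chr6:67376139-67376438, minus strand, GRCm38.p6: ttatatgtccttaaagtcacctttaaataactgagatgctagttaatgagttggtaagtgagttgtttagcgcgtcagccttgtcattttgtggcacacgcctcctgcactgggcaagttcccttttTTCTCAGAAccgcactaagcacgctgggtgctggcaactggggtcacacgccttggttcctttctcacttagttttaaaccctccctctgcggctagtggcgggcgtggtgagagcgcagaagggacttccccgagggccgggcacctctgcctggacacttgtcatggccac

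The Il23r promoter was poor in CpG. It held 2 CpG dinucleotides and 43.0% G and C, at percentiles 11.1 and 12.9 of 21045 RefSeq promoter windows of protein-coding genes, whose medians were 13 CpG and 56.7%. The Il12rb2 promoter held 12 CpG and 53.0% G and C, at percentiles 46.7 and 37.6. A peak overlapped 51.4% of all these windows, 5.39% of the 3708 windows with at most 2 CpG and 61.6% of the 1238 windows with 11 to 13 CpG. Without olfactory and vomeronasal receptor genes, the share among windows with at most 2 CpG was 7.40%. An acetylated start was thus uncommon among promoters as poor in CpG as that of Il23r, and common among promoters like that of Il12rb2.

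Both strands were searched for 8 motifs. AGGTCA, the core element bound by ROR nuclear receptors, matched the Il23r window at 2 places, from base -229 to -224 on the opposite strand and from -66 to -61 on the gene's strand, counting back from the start. It had 0 matches in the Il12rb2 window, and 14.6% of all windows held it. TTCNNNGAA, the spaced palindrome that STAT proteins bind, matched the Il12rb2 window once, from base -123 to -115, and the Il23r window at 0 places, against 7.76% of all windows. Neither window matched TGANTCA (AP-1, in 7.04% of windows), the IRF motif of a repeated GAAA with NN as spacer (3.38%), GGTGTGA (T-box, 3.67%), TGTGGT (RUNX, 14.7%), AGGAAG (ETS, 34.1%) or TATAAA (12.7%), the TATA box. The motifs do not overlap in these windows, and a match describes the letters and is not a measured binding site.

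A wide peak lay over the start of Il23r and of Il12rb2 and over one annotated end of Il12rb1. A peak lay within 1000 bp of a RefSeq start in 55.0% of the 17274 protein-coding genes that have one in the tables. The Il23r peak (chr6:67488297-67493245) was 4949 bp wide, with 1390 bp ahead of the start and 3559 bp from the start on. The Il12rb2 peak (chr6:67374620-67381260) was 6641 bp wide and leaned the other way, with 5072 bp ahead of the start and 1569 bp from it on. For Il12rb1 the tables used here give no strand, so its ends are named by coordinate, and a peak of 8542 bp lay over the lower one.

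These peaks stood among the wide ones of the list. Among 11637 protein-coding genes with a peak at an annotated end, the widest such peak had a median width of 1822 bp. The Il23r peak lay at percentile 93.3, the Il12rb2 peak at 96.4 and the Il12rb1 peak at 97.8 of that distribution. The Il12rb1 peak also covered an annotated end of the neighbouring gene Mast3, so its width does not belong to Il12rb1 alone. In the whole list of peaks on chromosomes 1 to 19 and X, the Il12rb1 peak was number 436 by width, the Il12rb2 peak number 775 and the Il23r peak number 1525.

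The share of the gene body under peaks was nearly the same in the 3 genes, and the arrangement was not. In Il23r 25.8% of the body was acetylated, in Il12rb2 27.1% and in Il12rb1 25.1%, against a median of 2.01% over all protein-coding genes. They stood at percentiles 90.0, 90.6 and 89.7 of all genes. Among genes within 1.5 times of their own length they stood at percentiles 96.4 of 2978 genes, 97.0 of 2506 and 92.0 of 4625, where the medians were 2.27%, 2.05% and 5.23%. The acetylated bases were spread over 12 peaks and 17760 bp in Il23r and over 17 peaks and 24458 bp in Il12rb2, whereas in Il12rb1 the 3811 bp belonged to the peak at its lower end alone. Of protein-coding genes, 59.7% had at least 1 peak in the body.

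**Figure D1:**
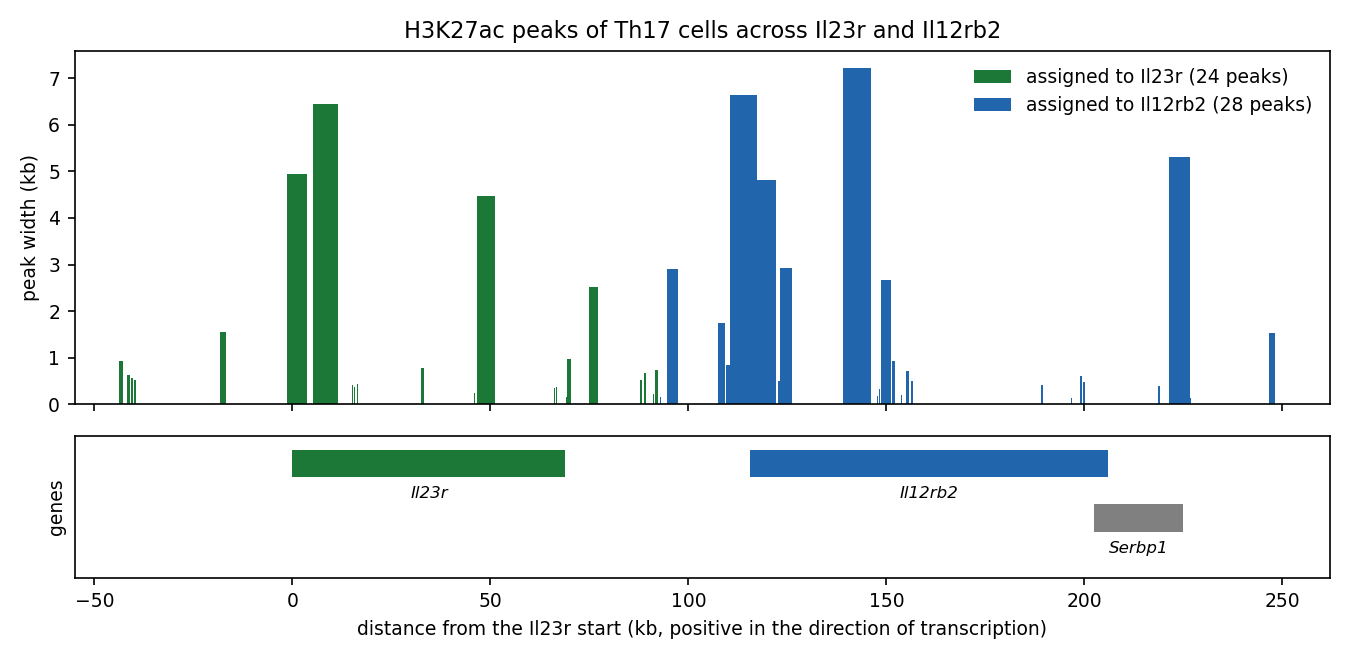
H3K27ac peaks across Il23r and Il12rb2, drawn as bars whose horizontal extent and height are both the peak's width (kb), against the distance from the Il23r start in kb, positive in the direction of transcription. Green bars are the 24 peaks assigned to Il23r and blue bars the 28 assigned to Il12rb2; the lower panel shows the annotated genes, and the 5 widest bars stand, in falling order, inside Il12rb2, at its start, inside Il23r, at Serbp1 and at the Il23r start.

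Il23r encodes the chain that makes a cell responsive to IL-23, and its acetylation lay in separate blocks. Nearest the start, 5 peaks between 67475225 and 67493245 covered 12630 of 18021 bp (70.1%). The widest of them, at 6455 bp (chr6:67480257-67486711), lay inside the gene and began 5144 bp beyond the start, so it was wider than the start peak itself. Farther in, a peak of 4479 bp (chr6:67440657-67445135) began 46.7 kb from the start, with a narrow peak of 251 bp beside it.

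Between these blocks Il23r held little. A pair of peaks of 160 and 781 bp lay 31.9 and 32.4 kb from the start, with stretches of 15304 and 12758 bp on either side that had no listed peak. The end of the gene held peaks of 139, 350 and 360 bp. Over the 24 assigned peaks the median width was 542 bp, close to the 579 bp of the whole list, and 4 peaks were at least 2000 bp wide (16.7%, against 16.3% of the list). The 3 widest peaks made up 54.5% of the assigned length of 29123 bp.

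On the far side of its start, away from Il12rb2, Il23r had 5 assigned peaks with 4177 bp. The nearest was 1544 bp wide (chr6:67508656-67510199) and lay 16.8 kb ahead of the start. The other 4 lay together, 39.5 to 42.8 kb ahead, and were 516 to 932 bp wide. The farthest of them, at 932 bp, overlapped another protein-coding gene, which is not reported here.

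Il12rb2 encodes the signalling chain of the IL-12 receptor, and it had more acetylated bases assigned to it than Il23r, 42957 bp in 28 peaks. Around its start, 6 peaks from 67365761 to 67384373 covered 17466 of 18613 bp (93.8%). Besides the start peak this block held peaks of 4818 and 2919 bp inside the gene and of 1745 bp ahead of it, with gaps of under 1000 bp between neighbours. Its edges lay 10.4 kb into the gene and 8.19 kb ahead of the start.

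A further block lay inside the gene. From 67335055 to 67352848, 9 peaks covered 12915 of 17794 bp (72.6%), and the peak of 7231 bp among them (chr6:67345618-67352848) was the widest at any of the 3 genes except the one at the lower end of Il12rb1. It ranked number 636 in the list and began 23.3 kb from the start. Beyond this block came 32280 bp with no listed peak, the longest such stretch in the windows of the 3 genes. The last 4 peaks in the gene were 143 to 596 bp wide and covered 1631 bp.

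At its far end Il12rb2 overlaps Serbp1, which encodes an RNA-binding protein. The 6 peaks assigned to Il12rb2 beyond that end held 7767 bp, and 4 of them, with 6097 bp in all, overlapped Serbp1. The widest, at 5301 bp, covered the annotated Serbp1 start, so most of the Il12rb2 length on this side lay on a neighbour. Among the 28 peaks the median width was 503.5 bp, 13 were under 500 bp (46.4%, against 45.6% of the list) and 7 were at least 2000 bp (25.0%, against 16.3%).

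The interval between the genes was acetylated as well. Its 46638 bp (chr6:67376294-67422931), downstream of Il23r and upstream of Il12rb2, were overlapped by 13 peaks that covered 16528 bp (35.4%), a larger share than in either gene body. Of 3237 intervals of 30 to 70 kb between neighbouring protein-coding genes, the median had 0.0% under peaks, and this interval lay at percentile 98.9. The side nearer to Il12rb2 held 10808 bp and the side nearer to Il23r 5720 bp. By midpoint 6 of the 13 peaks went to Il12rb2, its start peak among them, and 7 to Il23r.

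Away from the Il12rb2 start block, the widest peak in the interval was 2910 bp (chr6:67394426-67397335), 18.2 kb ahead of the Il12rb2 start. It was followed by one of 2511 bp (chr6:67414563-67417073) that overlapped the pseudogene Gm4761 and lay 74.8 kb beyond the Il23r start. A run of peaks of 165 to 741 bp lay between them. A pair of peaks, 977 and 159 bp wide, lay 506 and 160 bp beyond the far end of Il23r.

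Stitched across gaps of up to 12.5 kb, peaks formed 5 clusters that overlapped the body of Il23r or Il12rb2. Groups of flanking peaks that reached neither gene body are not counted among these 5. The longest ran from 67365761 to 67445913 and joined the start of Il12rb2 to the far part of Il23r through the interval, with 21 peaks and 32019 bp over 80153 bp, number 159 of 18748 clusters by covered length. The Il23r start stood in a cluster of its own of 12630 bp (number 898), and the inner block of Il12rb2 in one of 12915 bp (number 873). The split between clusters was a close one at both ends of the joint cluster. A gap of 12912 bp set it apart from the inner block of Il12rb2, and one of 12758 bp from the next peaks inside Il23r. Both were just over the limit, and stitching across longer gaps was not tried. With stitching across 5000 bp the joint cluster came apart, leaving 17569 bp in a piece at the Il12rb2 start and 4730 bp in a piece inside Il23r. With peaks of at least 500 bp only, stitched across 12.5 kb, the cluster at the Il12rb2 start ended at 67422426, short of Il23r, and held 25792 bp. The link between the genes thus rested on gaps of more than 5000 bp and on peaks under 500 bp.

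Il12rb1 (gene ID 16161, chr8:70808360-70823542), which encodes the chain used by both receptors, was overlapped by a single peak. It ran from 70803629 to 70812170 and covered 1420 bp of the neighbouring gene Mast3, which encodes a serine/threonine kinase, all 3311 bp between the genes and the 3811 bp of Il12rb1 nearest to Mast3. The remaining 11372 bp of the gene had no listed peak, and from the upper end of the gene the nearest peak was 9266 bp away. In the plot around Il12rb1 this peak stands alone over the gene.

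**Figure D2:**
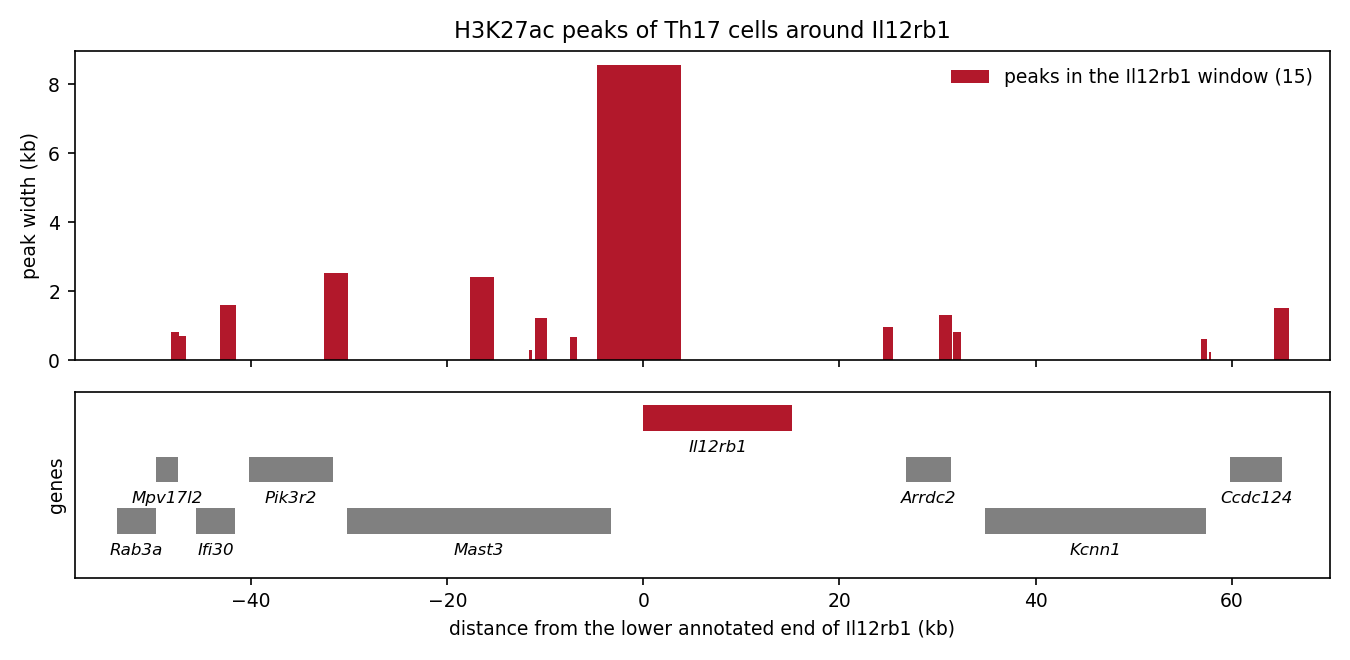
H3K27ac peaks around Il12rb1, drawn as bars whose horizontal extent and height are both the peak's width (kb), against the distance in kb from the gene's lower annotated end; grey boxes in the lower panel are other protein-coding genes. The peak of 8542 bp at the lower end is the widest of the 15, and most of the others stand on neighbouring genes.

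The Il12rb1 window is dense in genes, and 11 of its 15 peaks, the one over its lower end included, overlapped another protein-coding gene. These 11 held 20822 of the 23534 acetylated bp. Mast3 carried 6 peaks over 22.9% of its length, Ifi30, which encodes a lysosomal thiol reductase, had 37.8% covered, and Arrdc2, an arrestin-domain gene, 27.2%. Pik3r2, which encodes a regulatory subunit of PI3 kinase, had 11.2% covered, and the potassium channel gene Kcnn1 2.13%. The 4 peaks on no other protein-coding gene were 231 to 965 bp wide.

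The position of acetylation along the gene separated Il23r from Il12rb2. Each gene was cut into 3 parts of equal length from its start. In Il23r 48.9% of the first part was acetylated, 4.13% of the middle part and 24.3% of the last part. In Il12rb2 each part had a lower share than the one before it, at 55.0%, 20.8% and 5.42%. The mean over 1999 protein-coding genes of 50 to 100 kb with a known strand was 9.08%, 3.66% and 2.69%, and the medians were 4.72%, 0.0% and 0.0%. Both genes exceeded these means in all 3 parts, and the middle part of Il23r came closest to them. Il12rb1, which at 15183 bp is shorter than the genes of that class, had 75.3% in the part nearest its lower end and 0.0% in the others.

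**Figure D3:**
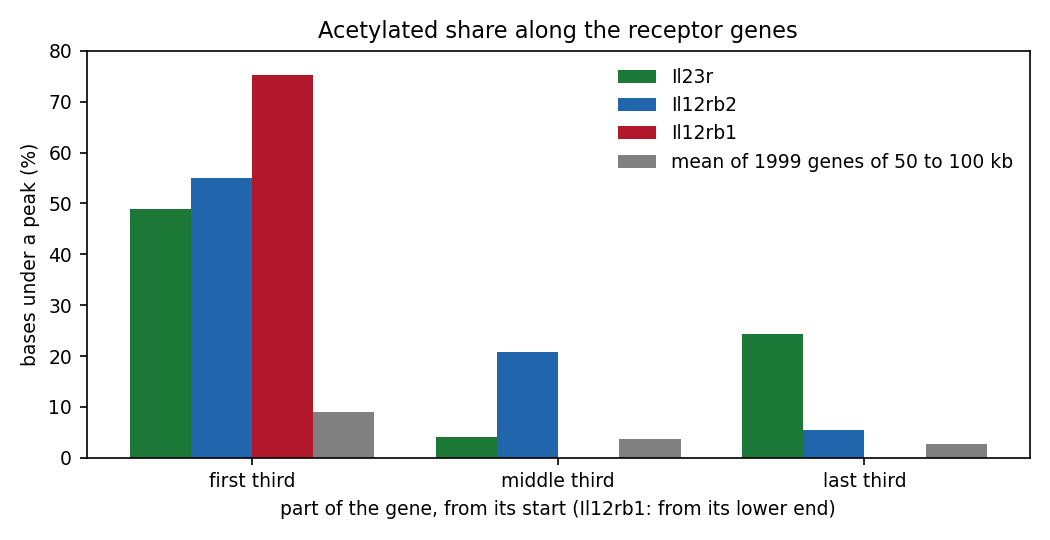
Share of bases under a peak (%) in the first, middle and last part of equal length of each receptor gene, beside the mean of 1999 protein-coding genes of 50 to 100 kb in grey. Il23r has 48.9%, 4.13% and 24.3%, Il12rb2 55.0%, 20.8% and 5.42%, and Il12rb1, measured from its lower end, 75.3%, 0.0% and 0.0%. At 15183 bp Il12rb1 is shorter than the genes in the mean.

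With every peak of a window counted, whichever gene it was nearer to, the gene and its 50 kb flanks had 25.5% of bases under peaks for Il23r, 26.0% for Il12rb2 and 20.4% for Il12rb1, against a median of 3.37% over all protein-coding genes. These stood at percentiles 97.9, 98.1 and 95.9. The first and second of these windows overlap each other and are not separate observations. Neighbouring peaks in the Il23r and Il12rb2 region lay closer together than in the list as a whole, with 24 of 51 gaps at most 1000 bp long (47.1%) and a median gap of 1092 bp, against 38.0% and 3595 bp over the whole list. Around Il12rb1 4 of 14 gaps were that short (28.6%), and the median was 3527.5 bp. The sets are unlike, since gaps leading out of these windows were not counted. The whole list also includes gaps away from genes, up to 12186335 bp.

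The limit of 50 kb mattered most for Il12rb1, which had 22 peaks with flanks of 100 kb, against 15 with 50 kb. Under the same change Il12rb2 had 29 peaks, against 28, and Il23r 24 under both. On the Il12rb2 side the last peak inside lay 40.7 kb from the gene and was 1532 bp wide, and the next outside lay 59.3 kb away with 368 bp. For Il12rb1 the last inside lay 47.4 kb below the gene (800 bp) and 49.1 kb above it (1504 bp), and the first outside 53.1 kb below (2592 bp) and 72.5 kb above (143 bp).

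Other genes of the pathway were taken from lists of ligands, kinases, transducers, inhibitors, targets and related receptor chains. Of these 31 genes, 18 had a peak within 1000 bp of an annotated end (58.1%, against 53.8% of all protein-coding genes), and the median acetylated share of the gene body was 11.8%, against 2.01%. The share of genes with such a peak was thus near the background, and all 3 receptor genes had one.

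Among ligand subunits 2 of 5 had an end peak. Il12b, which encodes the subunit common to IL-12 and IL-23, had no peak nearer than 54.9 kb, and Il12a, the other subunit gene of IL-12, none nearer than 12.3 kb. Il23a, which encodes the subunit particular to IL-23, had 1 peak over 230 bp of the gene (11.8%). Ebi3 had 42.0% of its body covered, and Il27, whose product pairs with that of Ebi3 in IL-27, 0.0%.

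Both kinase genes had an end peak, with 20.9% of Jak2 and 3.96% of Tyk2 covered. Of the transducers, Stat3, used by IL-23, had 44.7% of its body acetylated and Stat4, used by IL-12, had 13.1%. Stat4 is the longer gene, at 120084 bp against 52789 bp, and shares in these lists were not matched for length. Stat4 had a peak at a RefSeq start although none lay within 1000 bp of its annotated ends. All 4 inhibitors had an end peak. Socs1, Socs3 and Cish, short genes that encode feedback inhibitors of JAK-STAT signalling, were covered over their whole length, and the phosphatase gene Ptpn2 over 47.1%.

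Of 9 target genes 6 had an end peak. Il17a (89.4%), Csf2 (79.4%) and Il17f (62.5%) had the largest acetylated shares, and Tbx21, the gene of the Th1 transcription factor T-bet, had 20.9%. Il18rap had 13.1%, Il18r1 8.03% and Prdm1 2.70%. Prdm1, like Stat4, had a peak at a RefSeq start although none lay within 1000 bp of its annotated ends. Ifng, the signature cytokine gene of the IL-12 response, had its nearest peak at 21.4 kb, and Il22, a cytokine gene induced by IL-23, at 9.18 kb. Il12rb2 (90308 bp) thus had 27.1% of its body under peaks, against 0.0% of the much shorter Ifng (4849 bp).

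Among 9 related receptor chains 3 had an end peak, and the 3 receptor genes described here stood above all but 1 of them by acetylated share. Il6ra, which encodes the IL-6 receptor chain, had 82.0%. Il27ra had 13.3% and Il6st, which encodes the signalling chain gp130, 9.61%. Il31ra had 0.643%. The remaining 5, Lifr, Osmr, Csf3r, Lepr and Il11ra1, had 0.0%, and no peak lay within 50 kb of Lifr, Osmr or Lepr.

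**Figure D4:**
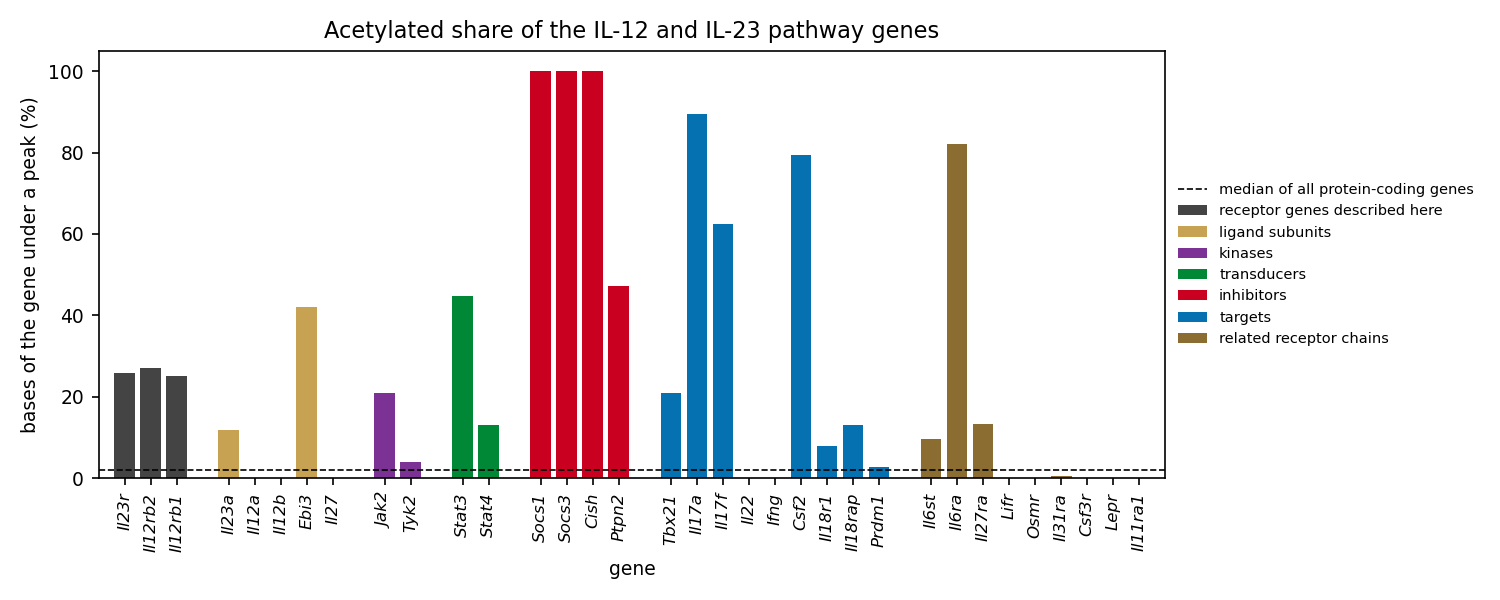
Share of bases of the gene under a peak (%) for Il23r, Il12rb2 and Il12rb1 and for 31 pathway genes grouped by role, with the median of all protein-coding genes (2.01%) as a dashed line. The 3 receptor genes lie between 25.1% and 27.1%, the inhibitors at 47.1% or more, and 5 of the 9 related receptor chains at 0.0%.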

How the data were processed

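H3K27ac and input DNA libraries were sequenced from Th17 cultures, and the authors deposited 1 list of peak positions in bp. Bowtie2 2.3.4.1, SAMtools 1.9, MACS2 2.2.6, deepTools and the build GRCm38 (mm10) are named, per the submitters' processing notes, and MACS used the inputs, per the design text of the series. The sources used here do not give thresholds, filters or any pooling of replicates. Starts were read as counted from 0, since the smallest width was then exactly 100 bp (788 peaks), and positions are printed counted from 1. Peaks on chromosomes 1 to 19 and X (56284) were overlapped by at least 1 bp with 21631 protein-coding genes of a RefSeq table of GRCm38.p6. Starts, strands and promoter sequences came from RefSeq promoter windows of that build, which hold Il23r and Il12rb2. A percentile is the share of genes with a lower value. No test was run, since 1 list has no replicate values. Members and gene lists were chosen with earlier results of these data known. Named genes are the members, genes in their windows and the pathway lists, of which some are not reported here. Interval code was tested on simulated peaks. The plan to compare receptor protein sequences was not carried out. Alternatives changed flanks, windows, stitching, width limits, merging and assignment. Python 3.11.15, numpy 2.4.6, pandas 2.3.3 and matplotlib 3.10.9 were used.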

Additional observations from a re-analysis of the deposited data

How the results depend on the processing

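Of 52 alternative values for 17 results, 38 stayed within 1.5 times of the reported value and 14 did not. With peaks of at least 500 bp only, Il23r had 14 peaks, Il12rb2 15, and the longest Il23r cluster covered 11404 bp. With peaks at most 1000 bp apart merged, Il23r and Il12rb2 had 14 peaks each and the interval between them 7, and median widths were 1614 bp for Il23r, 1406 bp for Il12rb2 and 1600 bp for Il12rb1. Flanks of 20 kb left Il12rb1 8 peaks, and a window of 2500 bp held 2 peaks at the Il12rb2 start. Stitching across 5000 bp gave longest clusters of 12630 bp for Il23r and 17569 bp for Il12rb2. For Il12rb1 it gave 13131 bp, against 21822 bp across 12.5 kb in a cluster that also spanned Mast3 and other neighbouring genes. These shifts follow from how each alternative is built: it drops or joins peaks, narrows or widens a window, or splits clusters. Acetylated lengths in the windows stayed within 1.5 times under all 4 alternatives run on them, and the count of peaks at the Il23r start and at the ends of Il12rb1 under all 3. No paired analysis was possible because the list gives no values per library, and leaving out a replicate could not be run for the same reason. Read depth is unknown, so an unlisted stretch is not shown to lack acetylation.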

Other observations

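The peaks carry running numbers up to 71449 that rise with position, and 15164 of these numbers (21.2%) are not in the list. Within the Il12rb2 and Il23r windows 17 of 69 numbers are absent (24.6%), and in the Il12rb1 window 3 of 18 (16.7%). Between the first and last peaks of the gene bodies, 8 of 25 numbers are absent in Il12rb2 and 6 of 18 in Il23r. The 2 numbers absent between the peak at the lower end of Il12rb1 and the next one fall in the 20637 bp that hold the rest of the gene, where no peak is listed. Long stretches without a listed peak in the other genes hold absent numbers too. In Il12rb2 there are 2 in the stretch of 32280 bp and 1 in that of 12912 bp. In Il23r there is 1 in the stretch of 15304 bp and 2 in that of 12758 bp. The sources used here do not say what the absent numbers stood for.

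Farther along the chromosome, on the side of Il23r away from Il12rb2, lies Igk, the immunoglobulin kappa locus (chr6:67555636-70726754). From the last peak in the Il23r window, 3173914 bp followed with no listed peak, and the next began 3217625 bp from Il23r, near the far end of Igk. Igk, which is 3171119 bp long, had 1 peak in all, and 0 running numbers are absent between these peaks.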
